A study of Mus musculus with 12 samples.

Results

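Mouse chromosome 6, apart from its HoxA cluster, was followed at 919 CCCGGG sites in colonic adenomas of 4 genotypes. They are the sites listed on chromosome 6 of the mm9 build, outside positions 52100000 to 52215000, that were covered by 50 reads or more in each of 11 of the 12 adenomas. Of the 9009 sites listed on chromosome 6 outside HoxA, 919 met this rule, and the whole series lists 173449 sites. The sites were chosen by position and by measured read depth, and methylation levels did not enter the rule. The chromosome itself was picked with its changes in Tet1 null adenomas already known, and its standing among the chromosomes in that comparison is therefore a description. The sites lay between positions 3269551 and 149394760. At the edge of the rule, 4 sites had 50 reads in their shallowest adenoma, with Tet1 null means of 0 to 80.5% and control means of 0 to 87.6%, and 3 sites with 49 reads were just outside it, with Tet1 null means of 7.59 to 93.3% and control means of 6.40 to 81.4%.

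All 12 adenomas came from the colon of C57BL/6J mice with 1 Min allele of Apc (ApcMin/+), taken at 150 to 160 days of age. Tet1 null adenomas were Tet1-/- with wild-type Tdg (n = 3). Tdg heterozygous adenomas carried 1 TdgN151A allele beside wild-type Tet1 (n = 3). Double heterozygous adenomas were Tet1+/- and TdgN151A/+ (n = 3, of which adenomas 1 and 2 entered the tests). Control adenomas were wild type at both Tet1 and Tdg (n = 3), so every group, controls included, carried the Min allele. The labels name no Cre and no inducible allele, and do not say whether the adenomas of a genotype came from separate mice. The p-values thus measure the spread between adenomas, which may be partly technical. A level is taken over all cells of a dissected adenoma, so fewer methylated cells and less methylation per cell cannot be told apart.

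Methylation of cytosine at CpG dinucleotides is copied when DNA replicates and is stable unless it is removed. Tet1 belongs to the dioxygenases that oxidise methylated cytosine step by step. Tdg, a glycosylase, cuts out the more oxidised bases so that base excision repair can restore an unmethylated cytosine. The N151A change lies in the catalytic site of mouse Tdg. Apc restrains Wnt signalling, and loss of its wild-type copy starts intestinal adenomas. CpG-dense stretches, often at promoters, are mostly unmethylated in normal tissue and can gain methylation in colonic tumours, whereas isolated CpGs are mostly methylated.

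Levels were measured by DREAM, a digital restriction enzyme assay, in which SmaI cuts unmethylated CCCGGG sites and XmaI then cuts the methylated ones, leaving different ends that are counted by sequencing. The level used below is the percentage that the authors adjusted with spiked standards, and a difference between groups is given in percentage points. The 11 adenomas held 8213211 to 18865833 reads on listed sites, with a median of 295 to 699 reads at the 919 sites. Double heterozygous adenoma 3 held 2349576 reads and a median of 79. It was left out of every test, and its value is given apart where it is used. The unmethylated standard read 0.147 to 1.29% in Tet1 null, 0.12 to 0.559% in Tdg heterozygous, 0.64 to 1.66% in double heterozygous and 0.422 to 1.20% in control adenomas. By their Y-chromosome reads, Tet1 null adenomas 1 and 2, Tdg heterozygous adenoma 2, the 3 double heterozygous adenomas and control adenoma 1 were male. The gene table at hand is of another build, coordinates were not converted, and which gene a site lies in was not analysed here.

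Most of the 919 sites were unmethylated in control adenomas. The control mean was below 5% at 564 sites, or 61.4%, and 80% or more at 148 sites, or 16.1%. It was 5 to 20% at 58 sites and 20 to 80% at 149 sites. The other autosomes, with 18965 sites that met the same depth rule, had 59.9% of sites below 5%, 19.5% at 20 to 80% and 13.2% at 80% or more. At 115 of the 919 sites no methylated read was seen in any of the 11 adenomas, and at 3 sites no unmethylated one, which left 801 sites to test. The spread between controls followed the level: the median SD over the 3 controls was 0.0391 points at sites below 5%, 7.14 points at 20 to 80% and 2.07 points at 80% or more.

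Loss of Tet1 came with higher methylation at a small set of chromosome 6 sites that were nearly unmethylated in controls. In Tet1 null against control adenomas 23 of the 801 tested sites rose and 0 fell, at an adjusted p under 0.05 in edgeR's quasi-likelihood test, with adjustment over the 17364 autosomal sites tested. The background over all these sites was 1.59% higher and 0.0115% lower, against 2.87% higher among the chromosome 6 sites. The rises had a median of 12.4 points, with a range of 0.797 to 32.2 points. They were 20 points or more at 7 sites, 10 points or more at 12 and below 3 points at 6. The control mean was below 5% at 21 of the 23 sites.

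The 2 sites with the largest rises lay at opposite ends of the chromosome. At position 142362457 the level was 38.1, 48.7 and 19.3% in the 3 Tet1 null adenomas, against 3.28, 1.58 and 4.68% in the 3 control adenomas, a difference of 32.2 points (adjusted p = 5.886e-05, edgeR). At position 3714674 it was 49.9, 13.4 and 28.9% in Tet1 null adenomas and 1.92, 0.47 and 1.49% in control adenomas, a difference of 29.5 points (adjusted p = 2.18e-09, edgeR). At both positions every Tet1 null adenoma lay above every control, and the Tet1 null values differed among themselves by far more than the controls did. Tdg heterozygous adenomas had 10.4, 6.74 and 1.93% at 142362457 and 1.72, 2.42 and 2.66% at 3714674. Double heterozygous adenomas 1 and 2 had 5.58 and 7.71% at 142362457 and 3.63 and 1.02% at 3714674. All heterozygous values in these tests were below all Tet1 null values. The shallow double heterozygous adenoma 3 read 14.8% at 3714674 on 29 reads, with an exact 95% binomial interval of 3.89 to 31.7% on its raw share, and so overlapped the lowest Tet1 null adenoma there.

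Position 102513773 differed from these in its spread. It had 24.96, 25.97 and 43.9% in Tet1 null adenomas, against 3.08, 3.69 and 2.30% in control adenomas, a difference of 28.6 points (adjusted p = 2.981e-06, edgeR). The groups did not overlap, and all 3 Tet1 null adenomas were high. Tdg heterozygous adenoma 1 stood at 19.96% there and the other two at 6.84 and 4.83%, while double heterozygous adenomas 1 and 2 had 5.64 and 6.49%. This was the only one of the 23 sites at which the Tdg heterozygous mean was 5 points or more above the control mean. Position 117117577 had 20.4, 7.41 and 19.5% in Tet1 null adenomas, against 2.41, 2.33 and 0.35% in control adenomas, a difference of 14.1 points (adjusted p = 0.000483, edgeR). The 5 heterozygous adenomas had 0.47 to 2.28% there and lay among the controls. Position 90275053 had 11.9, 22.3 and 16.4% in Tet1 null adenomas, against 8.43, 1.39 and 2.10% in control adenomas, a difference of 12.9 points (adjusted p = 0.009787, edgeR). Control adenoma 1 was the high control there, still below every Tet1 null adenoma.

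In 5 runs more than 1 site rose, where a run is a row of tested sites each no more than 500 bp from the next. Of these runs, the one with the highest mean level in Tet1 null adenomas was the pair at 119279783 and 119280224, and both of its sites passed the test. Position 119279783 had 38.2, 50.8 and 31.0% in Tet1 null adenomas, against 7.61, 10.2 and 23.1% in control adenomas, a difference of 26.4 points (adjusted p = 0.02308, edgeR). Position 119280224 had 34.7, 23.1 and 20.5% in Tet1 null adenomas, against 4.16, 3.73 and 9.26% in control adenomas, a difference of 20.4 points (adjusted p = 0.004306, edgeR). Control adenoma 3 was the highest control at both, and no Tet1 null adenoma was as low. At 119279783 the double heterozygous adenomas 1 and 2 had 23.3 and 22.1%, above every Tdg heterozygous adenoma (7.03, 17.4 and 11.6%) and beside the highest control. A further site 9156 bp before the pair also rose. Position 119270627 had 19.5, 25.9 and 17.6% in Tet1 null adenomas, against 3.91, 3.13 and 4.82% in control adenomas, a difference of 17.0 points (adjusted p = 0.003414, edgeR).

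The pair at 82988664 and 82988919 had the same order of adenomas at both sites. Position 82988664 had 9.79, 22.2 and 40.4% in Tet1 null adenomas 1, 2 and 3, against 2.13, 4.94 and 4.53% in control adenomas, a difference of 20.3 points (adjusted p = 0.002124, edgeR). Position 82988919 had 8.57, 14.3 and 24.2% in Tet1 null adenomas 1, 2 and 3, against 2.43, 3.99 and 3.40% in control adenomas, a difference of 12.4 points (adjusted p = 0.02022, edgeR). Tet1 null adenoma 3 was the highest and adenoma 1 the lowest at both sites, and all 3 lay above all controls.

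The pair at 108015332 and 108015753 was carried by Tet1 null adenoma 1. Position 108015753 had 52.8, 19.6 and 4.22% in Tet1 null adenomas, against 1.78, 2.92 and 5.20% in control adenomas, a difference of 22.2 points (adjusted p = 0.001894, edgeR). Position 108015332 had 8.78, 1.41 and 0% in Tet1 null adenomas, against 0, 0.5 and 0% in control adenomas, a difference of 3.23 points (adjusted p = 0.01517, edgeR). The groups overlapped at both sites, because Tet1 null adenoma 3 lay among the controls. Double heterozygous adenomas 1 and 2 had 20 and 5.77% at 108015753 and 5.32 and 1.76% at 108015332, so double heterozygous adenoma 1 was the second highest of the 11 at both. At 108015332 the double heterozygous mean of the 2 tested adenomas exceeded the Tet1 null mean, the only such case among the 23 sites.

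A run of 3 tested sites from 55067577 to 55068293 had a rise at each end and none between. Position 55068293 had 10.9, 14.5 and 24.7% in Tet1 null adenomas, against 1.66, 3.86 and 2.11% in control adenomas, a difference of 14.1 points (adjusted p = 0.001855, edgeR). Position 55067577 had 15.7, 6.47 and 5.10% in Tet1 null adenomas, against 1.59, 1.90 and 1.85% in control adenomas, a difference of 7.31 points (adjusted p = 0.03246, edgeR). Tet1 null adenoma 3 was the highest at the first of these positions and the lowest Tet1 null adenoma at the second. The middle site, 55067885, was at 0.22% or less in all 11 adenomas (adjusted p = 0.7287 for Tet1 null against control, edgeR). All 3 tested sites from 29477508 to 29478135 rose, at much lower levels. Position 29477508 had 1.07, 2.92 and 1.64% in Tet1 null adenomas, against 0.08, 0 and 0% in control adenomas, and position 29477768 had 0.23, 1.23 and 1.14%, against 0, 0.09 and 0.12% in control adenomas. Position 29478135 had 1.66, 3.87 and 2.07% in Tet1 null adenomas, against 0.35, 0.47 and 0.27% in control adenomas. The 3 differences were 1.85, 0.797 and 2.17 points (adjusted p = 6.203e-05, 0.01168 and 0.03178, edgeR), and no Tet1 null adenoma overlapped the controls at any of the 3 sites. The raw share at the unmethylated standard was 1.29, 0.827 and 0.147% in Tet1 null and 1.20, 1.00 and 0.422% in control adenomas, while the site levels are already adjusted. In Tet1 null adenomas 2 and 3 the levels at all 3 sites were above that adenoma's standard. In Tet1 null adenoma 1 only the level at 29478135 was, and in controls none was. The part of the standard's error in these rises was not tested.

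The other 6 rises were below 10 points. Positions 121161273, 134934264 and 143114934 had differences of 7.66, 8.14 and 6.90 points, and positions 5956086, 97437902 and 125553558 had 1.49, 1.93 and 2.75 points. At 134934264 the Tet1 null adenomas were close together, at 9.77, 9.98 and 10.7%, against 1.84, 1.87 and 2.32% in control adenomas (adjusted p = 0.01338, edgeR). At 5956086 Tet1 null adenoma 1 had 0.33% and lay below control adenoma 2 at 0.46%, so the groups overlapped. Of the 23 sites, 20 had every Tet1 null adenoma above every control and 3 overlapped, namely 5956086 and the pair at 108015332 and 108015753. This count is a description, since the sites were taken by the difference between these same adenomas. Over all autosomal sites tested, 10.9% had every Tet1 null adenoma above every control, and of the 801 chromosome 6 sites 76, or 9.49%, did. At 9 of the 801, or 1.12%, every Tet1 null adenoma was below every control, with a background of 1.16%.

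**Figure D1:**
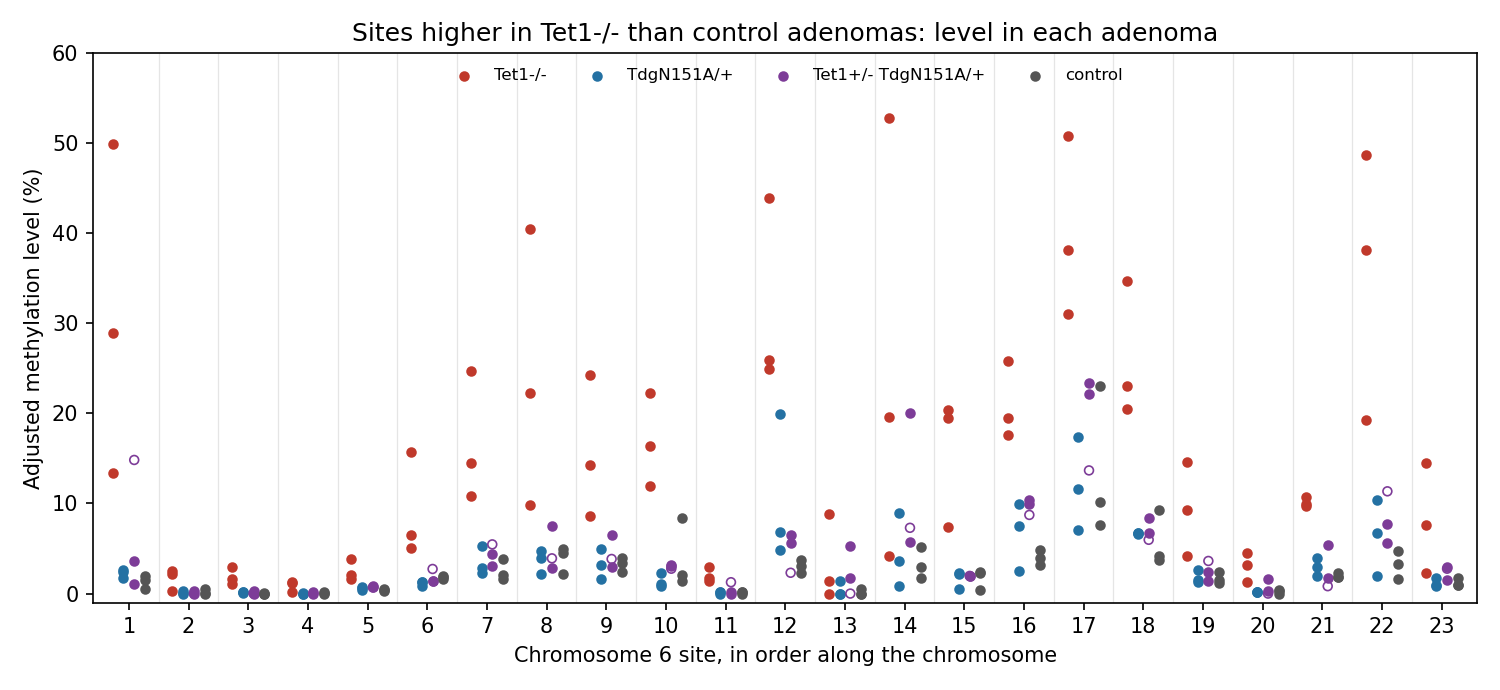
Adjusted methylation level (%) of each adenoma at the 23 chromosome 6 sites that were higher in Tet1 null (Tet1-/-) than in control adenomas, numbered in order along the chromosome; each filled point is an adenoma used in the test, and the open circle is double heterozygous adenoma 3, drawn at the 22 sites where it had 50 reads or more and at the first site, where it had 29. The highest of the filled points at every one of the 23 sites is a Tet1 null adenoma, and the sites were taken by the difference of Tet1 null from control adenomas.

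At each of the 23 sites the highest of the 11 adenomas was a Tet1 null one: adenoma 1 at 6 sites, adenoma 2 at 10 and adenoma 3 at 7. The mean level over the 23 sites was 15.9, 15.3 and 14.6% in the 3 Tet1 null adenomas. It was 3.25, 2.98 and 3.03% in Tdg heterozygous adenomas, 5.12 and 3.73% in double heterozygous adenomas 1 and 2, and 2.17, 2.23 and 3.06% in control adenomas. The 3 Tet1 null adenomas were thus close in their mean although different sites were high in each. These means and the counts of the highest adenoma are a description, since the sites were taken by their difference between Tet1 null and control adenomas. The Tdg heterozygous mean was above the control mean at 13 of the 23 sites and the double heterozygous mean at 19, with differences of 5 points or more at 1 and 3 sites. These counts are a description too, since they use the same control values by which the sites were taken.

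Besides the 23, sites with larger differences did not pass the test. Position 85423017 had 76.1, 57.9 and 78.6% in Tet1 null adenomas, against 46.5, 31.5 and 40.8% in control adenomas, a difference of 31.3 points (adjusted p = 0.07902, edgeR). Position 126592875 had 17.9, 36.4 and 31.8% in Tet1 null adenomas, against 8.79, 7.17 and 8.19% in control adenomas (adjusted p = 0.055, edgeR). The groups did not overlap at either, and both were chosen here after their values were seen. In all, the Tet1 null mean was 10 points or more above the control mean at 58 of the 801 sites, or 7.24%, and 10 points or more below it at 4, or 0.499%. Over all autosomal sites tested these shares were 8.28 and 0.518%. At an unadjusted p under 0.05, 74 sites, or 9.24%, were higher and 3, or 0.375%, lower in Tet1 null adenomas (edgeR), where the background was 8.23% higher and 0.438% lower.

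The number of rises depended on single adenomas and on the model. It was 12 without control adenoma 1, 2 or 3 in turn, 13 without Tet1 null adenoma 2 and 10 without Tet1 null adenoma 3, and no site fell in any of these fits. A quasi-binomial model called 3 rises and limma on the logit of the level 2, while limma on log2 ratios of the counts called 18.

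The rises fell on sites of low level. To group sites without the compared adenomas, the mean level over the 5 heterozygous adenomas used was taken. In Tet1 null against control adenomas, rises numbered 6 of 372 sites below 1%, 11 of 65 sites at 1 to 5% and 6 of 59 at 5 to 20%. None was among the 142 sites at 20 to 80% or the 163 at 80% or more. On the other autosomes the shares were 0.801% below 1%, 5.85% at 1 to 5%, 4.87% at 5 to 20%, 1.21% at 20 to 80% and 0.179% at 80% or more. Chromosome 6 thus had 16.9% at 1 to 5% and 10.2% at 5 to 20%, and 0 of 305 sites at 20% or more, where the other autosomes had 48 of 6351, or 0.756%. At that share few rises would fall on 305 sites, and the 0 was not tested against it. Chromosome 6 had 23 rises, against 11.7 at the rates of the other autosomes taken class by class. The gap between these counts is a description and was not tested, since the chromosome was picked with its share of rises known. It does not show an excess that holds after allowing for level. By the number of other CCCGGG sites within 500 bp, the rises were 1 of 55 sites with none, 19 of 461 with 1, 2 of 148 with 2 and 1 of 137 with 3 or more. The corresponding shares on the other autosomes were 1.24, 1.63, 1.92 and 0.737%, at which 12.04 rises would fall on chromosome 6. For the same reason this count is a description too, and shows no excess that holds after allowing for site density.

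**Figure D2:**
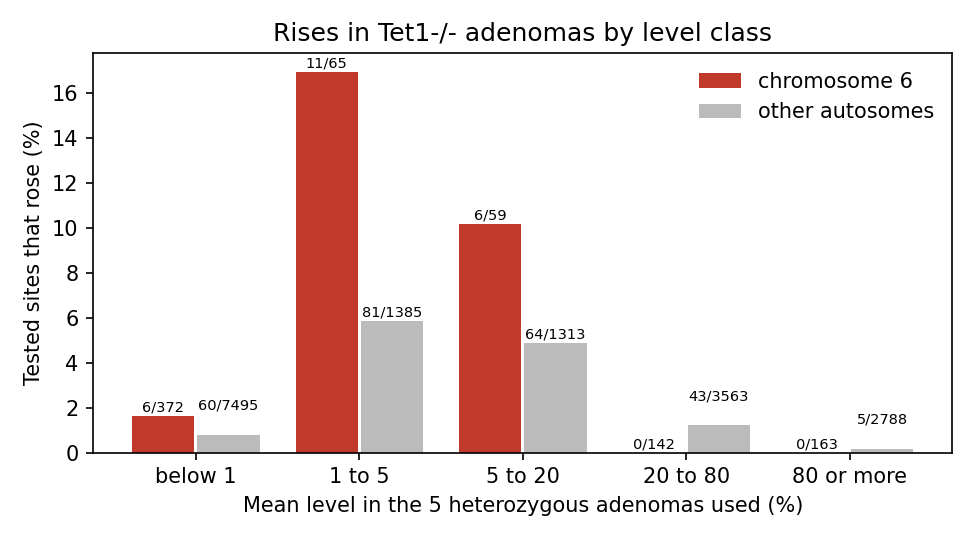
Share of tested sites (%) that were higher in Tet1 null than in control adenomas, by the mean level in the 5 heterozygous adenomas used, for chromosome 6 outside HoxA (red) and the other autosomes (grey); the numbers above the bars are rises over sites tested. On chromosome 6 the share was highest at 1 to 5%, with 11 of 65 sites, and 0 of 305 sites at 20% or more rose, against 48 of 6351 on the other autosomes.

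Among the 19 autosomes chromosome 6 had the highest share of sites that rose in Tet1 null against control adenomas, 2.87%. Chromosome 14 had 2.72%, chromosome 15 had 2.40%, chromosome 7 had 2.17% and chromosome 9, the lowest, 0.76%. The other autosomes together had 253 rises among 16544 sites, or 1.53%. It came after chromosome 14, with 1.70%, and chromosome 16, with 1.05%, when Tet1 null were set against double heterozygous adenomas, at 0.999%. The order of chromosomes is that of these counts, and no test was made of it, because the chromosome was picked with this share known. The average size of the difference did not set chromosome 6 apart in the same way. Over all its tested sites the mean difference of Tet1 null from control was 1.91 points, within the 1.58 to 2.67 points of the other autosomes. Counted by runs of sites no more than 500 bp apart, 17 of 424 runs on chromosome 6 held a rise, or 4.01%, against 201 of 8576 runs, or 2.34%, on the other autosomes.

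**Figure D3:**
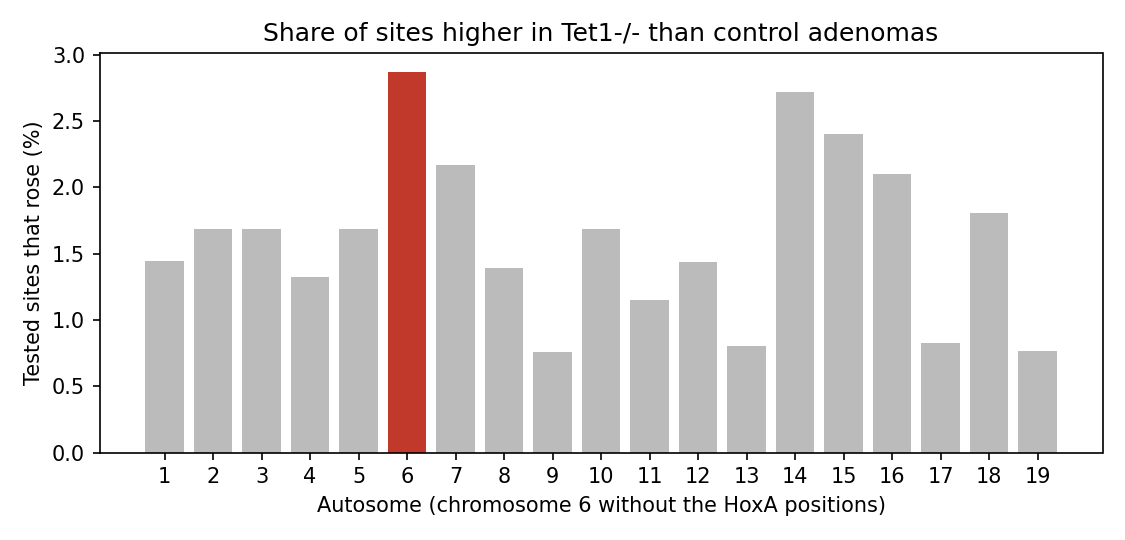
Share of tested sites (%) on each autosome that were higher in Tet1 null than in control adenomas, with chromosome 6 outside HoxA in red and the other autosomes in grey. Chromosome 6 is the highest at 2.87%, next to chromosome 14 at 2.72%, and chromosome 9 is the lowest at 0.76%.

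Rises were spread over the chromosome with long gaps. Of the 15 windows of 10 Mb, 10 held a rise. The window from 110 to 120 Mb held 4 among 83 tested sites. The windows from 20 to 30 Mb and from 100 to 110 Mb held 3 each, among 39 and 22 tested sites. The 3 from 20 to 30 Mb were the run from 29477508 to 29478135. The windows without a rise held 16 to 47 tested sites. The 3 longest gaps between risen sites were 23.5, 25.6 and 27.9 Mb. The mean difference of Tet1 null from control was above 0 in all 15 windows, from 0.189 to 2.89 points with a median of 1.55 points. In 6 of the 15 windows all 3 Tet1 null adenomas were above all controls. On the other autosomes 204 of 211 windows were above 0, with a median of 1.73 points, and all Tet1 null adenomas were above all controls in 78. The double heterozygous mean was likewise above control in 15 of 15 chromosome 6 windows, with a median of 1.45 points. Double heterozygous adenomas 1 and 2 were both above all controls in 6 of them. For Tdg heterozygous adenomas 14 windows were above 0, with a median of 0.756 points, and 2 had no overlap with controls. The window from 110 to 120 Mb had the largest mean difference of Tet1 null from control, with 37.4 ± 1.88% in Tet1 null and 34.5 ± 0.869% in control adenomas (SD, n = 3 each). The window from 60 to 70 Mb had the smallest, with 25.6 ± 0.920% in Tet1 null and 25.4 ± 1.14% in control adenomas (SD, n = 3 each), well within the spread between adenomas.

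Tested neighbours of a risen site were often not called. Of the 16 runs with a rise that held more than 1 tested site, 11 had a single rise. At 121160872, in the run of the rise at 121161273, all 11 adenomas had 0.28% or less. At 134933940, beside the rise at 134934264, they had 0.19% or less. At 90275447, beside the rise at 90275053, levels were 41.9, 69.4 and 52.4% in Tet1 null adenomas, against 21.0, 31.8 and 34.1% in control adenomas (adjusted p = 0.2266, edgeR). The first 2 neighbours stayed unmethylated in every genotype, whereas at the third all Tet1 null adenomas lay above all controls without passing the test. At the ends of the chromosome, the first tested site, 3269551, had 45.7, 58.6 and 69.0% in Tet1 null and 39.8, 49.5 and 54.0% in control adenomas and overlapped. The last, 149394760, was at 98.7 to 100% in all 11 adenomas.

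**Figure D4:**
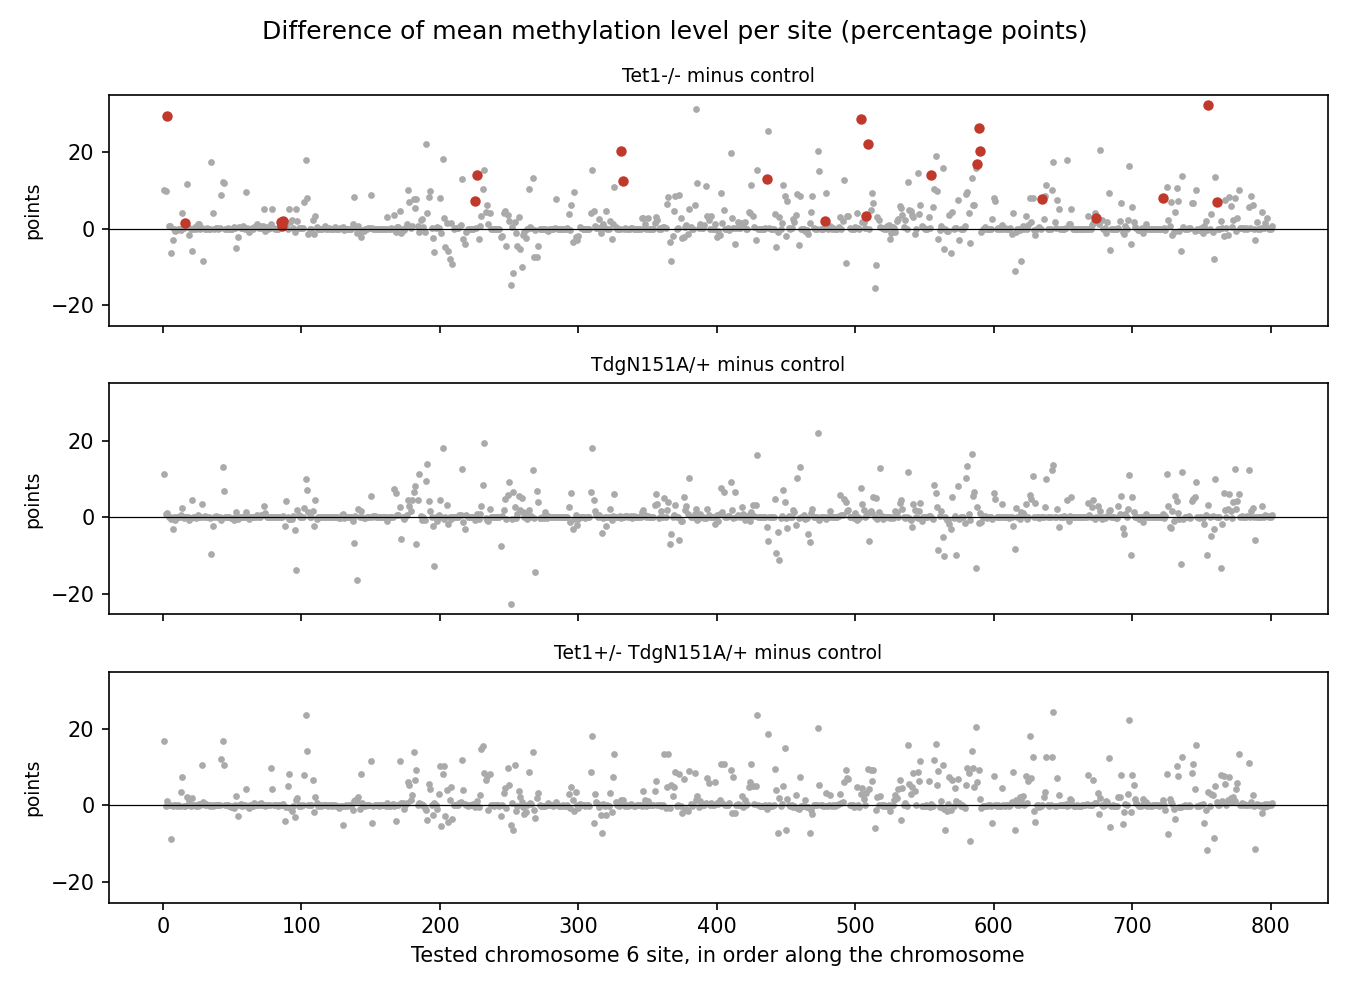
Difference of mean methylation level from control adenomas (percentage points) at each of the 801 tested chromosome 6 sites, in order along the chromosome, for Tet1 null (Tet1-/-), Tdg heterozygous (TdgN151A/+) and double heterozygous (Tet1+/- TdgN151A/+, adenomas 1 and 2) adenomas; red points passed an adjusted p of 0.05. The 23 red points are all in the top panel and above 0.

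Tdg heterozygous adenomas were compared with controls to see the effect of 1 mutant Tdg allele. In edgeR 0 of the 801 sites passed in either direction, and the background was likewise 0.0% higher and 0.0% lower. At an unadjusted p under 0.05, 18 sites, or 2.25%, were higher and 10, or 1.25%, lower (edgeR), against a background of 1.96 and 1.04%. Limma and the quasi-binomial model also called 0 sites. The sites with the smallest p on the higher side were 117689618, 48552038 and 73101801. Position 117689618 had 100, 99.5 and 98.9% in Tdg heterozygous adenomas, against 77.7, 96.3 and 100% in control adenomas (adjusted p = 0.3251, edgeR), so that control adenoma 1 alone was low. Position 73101801 had 89.7, 93.2 and 90.1% in Tdg heterozygous adenomas, against 56.0, 91.5 and 71.0% in control adenomas (adjusted p = 0.9824, edgeR). Position 48552038 had 1.69, 0 and 0% in Tdg heterozygous adenomas, against 0% in each control (adjusted p = 0.8538, edgeR). At all 3 sites the groups overlapped.

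On the lower side the sites were 58116146, 137597993 and 90368319. Position 58116146 had 55.0, 51.2 and 75.1% in Tdg heterozygous adenomas, against 81.5, 82.2 and 85.5% in control adenomas, and the groups did not overlap (adjusted p = 0.9824, edgeR). Position 90368319 had 78.6, 76.5 and 95.2% in Tdg heterozygous adenomas, against 97.8, 91.3 and 94.9% in control adenomas (adjusted p = 0.9824, edgeR), with adenomas 1 and 2 low and adenoma 3 among the controls. Position 137597993 had 0% in all 3 Tdg heterozygous adenomas, against 0.18, 0.67 and 0.18% in control adenomas (adjusted p = 0.9824, edgeR). The Tdg heterozygous mean was 10 points or more above the control mean at 29 of the 801 sites, or 3.62%, and as far below it at 10, or 1.25%, against 3.68 and 1.57% of all autosomal sites tested.

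Double heterozygous adenomas, with 1 mutant allele of each gene, were compared with controls on adenomas 1 and 2. In edgeR 0 of 801 sites passed, with a background of 0.0% in each direction, and neither limma nor a quasi-binomial fit called any. At an unadjusted p under 0.05, 25 sites, or 3.12%, were higher and 3, or 0.375%, lower (edgeR), against a background of 3.08 and 0.657%. The smallest p on the higher side was at 108015332 (adjusted p = 0.3294, edgeR), at 108015753 and at 89044730. Position 89044730 had 85.3 and 85.0% in double heterozygous adenomas 1 and 2, against 61.5, 64.1 and 59.1% in control adenomas, a difference of 23.6 points without overlap (adjusted p = 0.899, edgeR). Tdg heterozygous adenomas had 83.1, 80.9 and 69.2% there and Tet1 null adenomas 66.7, 83.2 and 80.9%, so every mutant adenoma was above every control. On the lower side were 147035383, 51563069 and 142912963. Position 147035383 had 6.95 and 9.45% in double heterozygous adenomas 1 and 2, against 26.5, 18.4 and 14.1% in control adenomas (adjusted p = 0.899, edgeR). Position 51563069 had 0% in both, against 0, 1.72 and 1.16% in control adenomas, and position 142912963 had 1.83 and 7.35%, against 20.2, 7.39 and 11.9% in control adenomas (adjusted p = 0.899 for each, edgeR). The double heterozygous mean was 10 points or more above the control mean at 48 of the 801 sites, or 5.99%, and as far below it at 2, or 0.25%, against 7.61 and 1.2% of all autosomal sites tested.

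The mutant genotypes were also compared with each other. The comparisons below that include Tet1 null adenomas share them with the comparison against control, and their counts are not independent of it. In Tet1 null against Tdg heterozygous adenomas 22 sites rose and 0 fell (edgeR), or 2.75% of 801, against a background of 1.69% higher and 0.00576% lower. At an unadjusted p under 0.05, 65 sites, or 8.11%, were higher and 9, or 1.12%, lower (edgeR), against a background of 7.18 and 0.518%. The largest difference was at 90275447, with 41.9, 69.4 and 52.4% in Tet1 null adenomas, against 21.6, 20.4 and 26.5% in Tdg heterozygous adenomas, or 31.7 points (adjusted p = 0.04829, edgeR). This was a site of intermediate level, and the double heterozygous adenomas 1 and 2, at 48.9 and 46.1%, lay within the Tet1 null range and above all Tdg heterozygous adenomas. Next were 142362457, 3714674, 119279783 and 108015753, with differences of 29.0, 28.5, 28.0 and 21.1 points. Adjusted p was 0.001351, 6.338e-07, 0.0103 and 0.005872 for them (edgeR). Without Tdg heterozygous adenoma 1 the count was 14 and without Tdg heterozygous adenoma 2 it was 13, while leaving out Tet1 null adenoma 2 or 3 gave 14 each.

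In Tet1 null against double heterozygous adenomas 8 sites rose and 0 fell (edgeR), or 0.999% of 801, against a background of 0.582% higher and 0.00576% lower. At an unadjusted p under 0.05, 39 sites, or 4.87%, were higher and 8, or 0.999%, lower (edgeR), against a background of 4.03 and 0.559%. The 5 largest were 142362457, 3714674, 102513773, 117117577 and 90275053, with differences of 28.7, 28.4, 25.5, 13.8 and 13.8 points. Adjusted p was 0.03621, 3.808e-05, 0.01856, 0.01033 and 0.04667 for them (edgeR). At each of the 5 the lowest Tet1 null adenoma was above both double heterozygous adenomas tested. The count fell to 0 without double heterozygous adenoma 2, to 2 without Tet1 null adenoma 3 and to 1 with sex as a covariate. All double heterozygous adenomas were male, against 2 of 3 in the Tet1 null group, and the part of sex in this result was not tested further.

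Double heterozygous and Tdg heterozygous adenomas, which differ by 1 Tet1 allele, gave 0 sites in edgeR, limma and the quasi-binomial model, with a background of 0.0% in each direction. At an unadjusted p under 0.05, 13 sites, or 1.62%, were higher and 6, or 0.749%, lower in double heterozygous adenomas (edgeR), against a background of 1.83 and 0.806%. The largest difference among the 6 sites of smallest p was at 119270157, with 62.9 and 70.0% in double heterozygous adenomas 1 and 2, against 19.4, 32.3 and 45.8% in Tdg heterozygous adenomas (adjusted p = 1.0, edgeR). The groups did not overlap there, but controls alone ran from 18.6 to 70.2% at this site. Positions 108015332 and 90368319 were the other two on the higher side, with adjusted p of 0.9837 and 1.0 (edgeR). On the lower side were 83643420, 73212033 and 135186469, each with an adjusted p of 1.0 (edgeR). Position 73212033 had 93.3 and 81.7% in double heterozygous adenomas 1 and 2, against 96.4, 95.7 and 96.8% in Tdg heterozygous adenomas. At 135186469 the values were 98.04 and 76.1%, against 97.6, 97.0 and 97.8% in Tdg heterozygous adenomas, and at 83643420 they were 0.27 and 0%, against 2.35, 3.47 and 0%. Double heterozygous adenoma 2 was the low one at 73212033 and 135186469.

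Averaged over the 919 sites, the genotypes were close. The mean level was 25.1, 28.0 and 27.1% in Tet1 null adenomas, 25.45, 25.6 and 26.4% in Tdg heterozygous adenomas, 27.4 and 25.8% in double heterozygous adenomas 1 and 2, and 24.9, 24.8 and 25.55% in control adenomas. Tet1 null adenoma 1 lay among the controls and the other two above them, so the groups overlapped. Tet1 null adenomas averaged 26.8 ± 1.49% and control adenomas 25.1 ± 0.388% (SD, n = 3 each; exact two-sided permutation p = 0.2, adjusted 0.4 over 6 comparisons). Tdg heterozygous adenomas averaged 25.8 ± 0.498% (SD, n = 3; exact permutation p = 0.2 against control, adjusted 0.4) and double heterozygous adenomas 26.6 ± 1.14% (SD, n = 2; exact permutation p = 0.2, adjusted 0.4). Among the mutants, the exact permutation p was 0.4 for Tet1 null against Tdg heterozygous, 1.0 for Tet1 null against double heterozygous and 0.4 for double against Tdg heterozygous adenomas. The smallest p the design allows is 0.1 for 3 against 3 and 0.2 for 2 against 3 adenomas, so none could pass 0.05.

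Sites at intermediate level differed most between adenomas. At the 150 sites with a mean of 20 to 80% over the 11 adenomas, levels averaged 52.8, 65.4 and 61.5% in Tet1 null, 55.9, 56.5 and 59.3% in Tdg heterozygous, 63.1 and 57.7% in double heterozygous and 53.6, 53.4 and 56.3% in control adenomas. Tet1 null adenoma 1 was the lowest of the 11 and Tet1 null adenoma 2 the highest. The other autosomes had 51.2, 62.3 and 57.4% in Tet1 null and 50.9, 49.4 and 51.2% in control adenomas, where Tet1 null adenoma 2 was again the highest but Tet1 null adenoma 1 was level with the highest control. At the 614 sites below 20% the means were 1.81, 2.59 and 2.37% in Tet1 null adenomas, against 1.15, 1.27 and 1.31% in control adenomas, and all Tet1 null adenomas were above all controls. Tdg heterozygous adenomas had 1.33, 1.245 and 1.72% there. Double heterozygous adenomas 1 and 2 had 2.16 and 1.23%, so adenoma 1 lay above Tet1 null adenoma 1. On the other autosomes such sites had 1.70, 2.38 and 2.20% in Tet1 null and 1.27, 1.35 and 1.39% in control adenomas, also without overlap.

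Chromosome 6 stood above the other autosomes in mean level in each genotype. The difference was 1.35 ± 0.163 points in Tet1 null (SD, n = 3), 1.64 ± 0.0748 in Tdg heterozygous (SD, n = 3), 1.55 ± 0.282 in double heterozygous (SD, n = 2) and 1.62 ± 0.264 in control adenomas (SD, n = 3). The exact two-sided permutation p was 1.0 for Tdg heterozygous against control, 1.0 for double heterozygous against control and 0.8 for double against Tdg heterozygous adenomas, and adjusted p was 1.0 for the 3. No test was made with Tet1 null adenomas here.

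Single adenomas were also scored for sites gained, meaning that 2 controls were below 5% at the site while the adenoma itself reached at least 15%. For mutant adenomas the share is a mean over all pairs of controls, so it need not match a whole number of sites. Tet1 null adenomas had gained 1.26, 0.962 and 1.74% of such chromosome 6 sites. Tdg heterozygous adenomas had gained 0.241, 0.0603 and 0%, double heterozygous adenomas 0.12 and 0%, and each control, scored against the other two, 0%. Every Tet1 null adenoma thus had a higher gained share than any other adenoma. On the other autosomes the shares were 0.401, 0.493 and 0.446% in Tet1 null and 0.107, 0.0357 and 0.0535% in control adenomas. These shares are a description and not separate support, since the chromosome was picked with its changes between Tet1 null and control adenomas known.

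**Figure D5:**
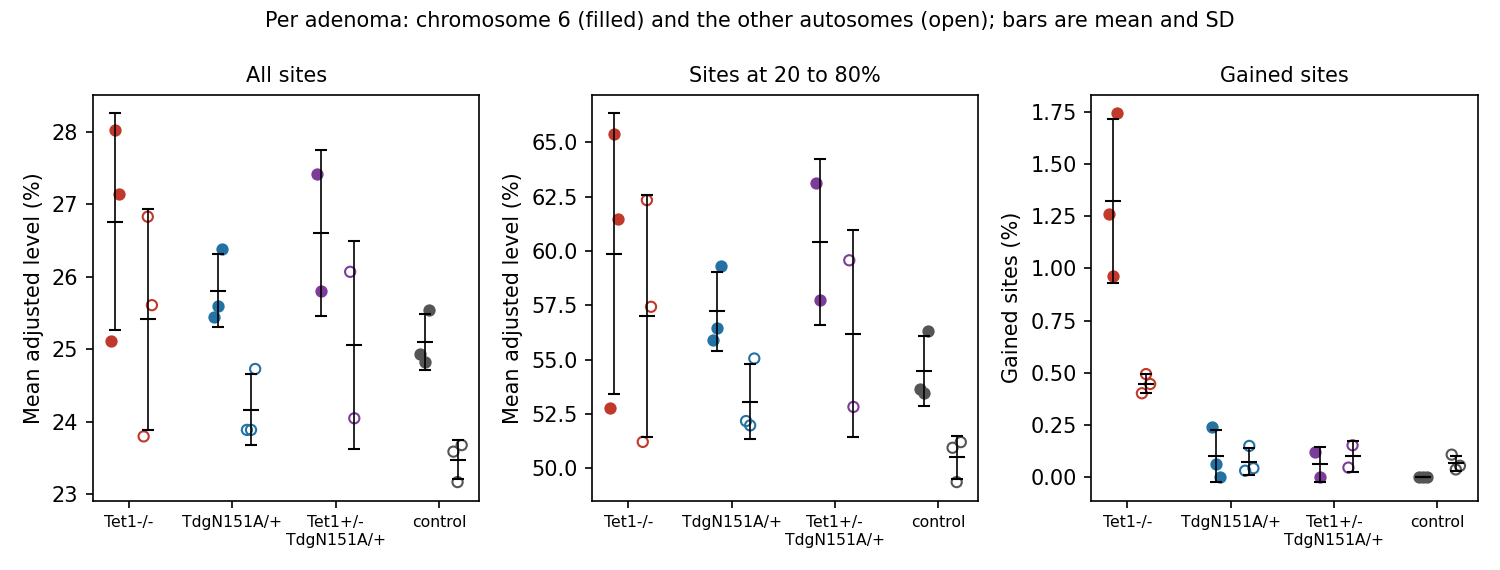
Mean methylation level (%) over all sites and over sites at 20 to 80%, and share of sites gained (%), in each adenoma, for chromosome 6 outside HoxA (filled points) and the other autosomes (open points); bars are mean and SD of 3 adenomas per genotype, or 2 for Tet1+/- TdgN151A/+. The gained share of the 3 Tet1 null adenomas, 0.962 to 1.74% on chromosome 6, lies above all other adenomas. It is a description, since the chromosome was picked with its changes in Tet1 null adenomas known.

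Chromosome 6 sites just below the depth rule gave no call. Of the 224 sites with 20 to 49 reads in their shallowest adenoma, 185 could be tested, and 0 passed in Tet1 null against control adenomas (edgeR, adjusted over all sites of 20 reads or more). On the other autosomes 17 of 3465 such sites were higher, or 0.491%. The median difference of Tet1 null from control was 0.517 points at the 185 sites and 0.663 points at the 3465.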

How the data were processed

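DREAM libraries of 12 adenomas, 3 per genotype by the labels, were analysed. The deposited tables give counts of methylated, unmethylated and total reads per CCCGGG site (mm9), per the file headers. Each site also has a deposited raw percent and a percent that the authors corrected by spiked standards for how completely the enzymes cut, per the labels. Reads were handled with Trim Galore and Bowtie2 and the mm9 build, per the submitters' processing notes; no versions are named there. A depth of at least 100 reads is stated in the labels, but shallower sites are listed too.

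Sites with 50 reads or more in 11 adenomas and reads of both states entered edgeR 4.0.16 (R 4.3.3), in 1 quasi-likelihood fit of the methylated and unmethylated counts over 17364 autosomal sites (common dispersion 0.111), two-sided, p-values being adjusted by Benjamini-Hochberg over these sites and called under 0.05. Double heterozygous adenoma 3 was left out for depth. Means of adenomas entered exact permutation tests in SciPy 1.17.1. The members, the lists and the named sites were chosen with earlier results of these data known. Named sites were up to 12 rises and falls of largest difference per comparison with control, up to 5 between mutants, or, with none called, the 3 of smallest p in each direction, with every run holding 2 or more rises and the end sites. Alternatives were other depth minimums, all 12 adenomas, limma 3.58.1 on log2 count ratios (2 reads added) or on logit levels, a quasi-binomial model, centred values, fits of the compared genotypes alone, a replicate block, sex as a covariate, a limit on level, pooled reads, 1 value per run, and leaving out each adenoma. The fits were tested on simulated counts for Tet1 null against control. There edgeR called 7 of 100 sites whose odds were changed 2.72-fold and 81 of 100 changed 7.39-fold. The changed sites had levels of 1 to 50%, and all sites and adenomas were given the same dispersion. Changes at other levels, or in the heterozygous adenomas, were not simulated, so these rates may not hold there. A count of 0 calls thus does not show that no site changed. Between adenomas of a genotype, levels differed at 13.0 to 30.5% of tested chromosome 6 sites by a chi-square test at p under 0.05, and no pair was treated as a repeat of 1 library. No molecular identifiers are named, so intervals cover counting error only. Figures were drawn with matplotlib 3.10.9.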

Additional observations from a re-analysis of the deposited data

Results flagged for a closer look

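Both results below were noted because the difference between genotypes was itself tested. In Tet1 null against Tdg heterozygous adenomas 22 chromosome 6 sites were higher and 0 lower in the Tet1 null group (edgeR, adjusted p under 0.05). The 22 were 2.75% of the sites tested there, against 1.69% higher over all autosomal sites tested. In Tet1 null against double heterozygous adenomas 8 sites were higher and 0 lower by the same test, on double heterozygous adenomas 1 and 2 alone. The 8 were 0.999% of the sites tested on chromosome 6, against 0.582% higher over all autosomal sites tested. The first count ran from 13 to 25 and the second from 0 to 8 when single adenomas were left out.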

How the results depend on the processing

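The 0 calls of Tdg heterozygous and of double heterozygous against control adenomas were 0 under all 23 alternatives run for each. For Tet1 null against control, Tet1 null against Tdg heterozygous and Tet1 null against double heterozygous adenomas, with 23, 22 and 8 sites, the counts were 14, 14 and 4 at 300 reads or more, 2, 2 and 0 with limma on logit levels, 3, 3 and 0 with the quasi-binomial model, 8, 12 and 3 with limma on centred log2 ratios, and 8, 6 and 0 at mean levels of 5 to 95%. Fewer sites are tested at 300 reads (415) and at 5 to 95% (321); otherwise the cause was not tested. Tet1 null against double heterozygous gave 3 sites with limma on log2 ratios, 3 with these genotypes alone and 1 with sex as a covariate. With the replicate number as a block the 3 counts were 13, 16 and 1. Whether the numbers pair the adenomas was not settled. Correlations of deviations were -0.276 to 0.234 between same-numbered adenomas and -0.376 to 0.376 between others. Of the 11 adenomas, 6 were closest to their own number. Deviations of the 2 double heterozygous adenomas used mirror each other, so their correlations come with both signs. Leaving out single adenomas gave 10 to 27, 13 to 25 and 0 to 8 sites, and 0 to 1 for double against Tdg heterozygous adenomas, with 1 site without double heterozygous adenoma 1 or Tdg heterozygous adenoma 3. Where 1 adenoma was left in a group it was assumed to vary like the other groups.

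The mean level over the 919 sites differed by 0.154 points between Tet1 null and double heterozygous adenomas, and by -0.655 to 0.977 points with single adenomas left out, turning negative without Tet1 null adenoma 2 (-0.482) or 3 (-0.0332) or double heterozygous adenoma 2 (-0.655). Double minus Tdg heterozygous was 0.801 points, and -0.00766 to 1.61. The difference of chromosome 6 from the other autosomes moved as follows. With pooled reads it was 0.0878 points for Tet1 null minus control (-0.272 otherwise), -0.181 for Tdg heterozygous minus control (0.0172), 0.033 for double heterozygous minus control (-0.0708), 0.269 for Tet1 null minus Tdg heterozygous (-0.289), 0.0549 for Tet1 null minus double heterozygous (-0.201) and 0.214 for double minus Tdg heterozygous (-0.0881). At 20 reads it was -0.111 for Tdg heterozygous minus control, -0.114 for Tet1 null minus Tdg heterozygous and 0.0232 for double minus Tdg heterozygous, and with 1 value per run it was 0.0114 for double heterozygous minus control. With single adenomas left out it was -0.123 to 0.139 for Tdg heterozygous minus control, -0.27 to 0.129 for double heterozygous minus control and -0.288 to 0.112 for double minus Tdg heterozygous. The cause of these moves was not tested. Every named call kept its sign under all of its 21 to 23 alternatives. The 12 named rises over control stayed below an adjusted p of 0.05 in 11 to 20 of them, with the fewest at 119279783, the named rises over Tdg heterozygous adenomas in 8 to 20, and those over double heterozygous adenomas in 4 to 18. Depth limits sites near 0%, where a few methylated reads make the level.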

Other observations

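Some chromosome 6 sites varied strongly over the 11 adenomas, and those below were chosen after their values were seen. The largest SD over the 11 adenomas, 19.3 points, was at 119270157, where the controls alone had 18.6, 48.8 and 70.2%. Position 45030187 was highest in Tet1 null adenoma 3 at 89.6% and lowest in control adenoma 1 at 36.5%, with a median of 80.6%. Position 8902876 was highest in Tet1 null adenoma 1 at 73.3% and lowest in Tdg heterozygous adenoma 2 at 6.67%, with a median of 37.5%.

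At 7 sites 1 adenoma stood 25 points or more from the nearest of the other 10. Tet1 null adenoma 1 was the one below at 58121110, with 52.4% on 957 reads against 78.7% in the next adenoma, and at 109098358, with 13.1% on 1068 reads against 43.6%. It was the one above at 108015753, with 52.8% against 20%. Tdg heterozygous adenoma 2 stood above at 51119051, with 37.2% against 5.80%, and below at 60140977, with 26.6% against 51.97%. Tdg heterozygous adenoma 1 stood below at 117686176, with 61.6% against 91.2%, and control adenoma 2 at 145327063, with 50.2% against 75.7%.

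Tet1 null adenoma 1 was also the lowest at 2 sites within 5 kb of 58121110. Position 58116146 had 36.2% in it, against 82.9 and 86.3% in the other two Tet1 null adenomas and 81.5, 82.2 and 85.5% in control adenomas. All Tdg heterozygous adenomas were also below all controls at 58116146, as given above, so it was not the only low adenoma there. Position 58116519 had 14.3% in it, against 65.5 and 58.4% in the other two and 63.9, 36.6 and 71.8% in control adenomas. Position 58116434, between them, had 98.2, 96.0 and 97.5% in the 3 Tet1 null adenomas and 98.5, 96.1 and 95.8% in control adenomas, so the low values did not extend over all sites there.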
